A study of Homo sapiens with 2 samples.

Results

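The AP-1 factors, EGR1 and MYC are transcription factors, and many of their mRNAs are made within minutes of a growth or stress signal and are quickly degraded. The genes read here were FOS, FOSB, FOSL1, FOSL2, JUN, JUNB, JUND, ATF3, EGR1 and MYC, chosen by name, and every probe set annotated to exactly 1 of these symbols was taken. All 10 had such a probe set, 24 in all, among 19775 genes and 41097 probe sets with 1 gene symbol. The cells were AsPC-1, a line of human pancreatic ductal adenocarcinoma (PDAC) cells, and the groups were cells given control siRNA and cells given PGR siRNA, with 1 array per group. Both groups were grown in medium with fetal bovine serum, a source of growth factors. PGR is the progesterone receptor, a nuclear hormone receptor. The array was made to ask which mRNAs differ when PGR is silenced. With a single array per condition there was no replicate error and no test, and differences below are of these 2 arrays.

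AP-1 is a dimer of basic leucine zipper (bZIP) proteins, in which a FOS protein binds a JUN protein, or JUN proteins bind each other, and the pair sits on DNA at the AP-1 site. RAS and ERK signaling raises FOS and EGR1 through serum response factor at CArG boxes in their promoters, and JUN kinases act on JUN protein. EGR1 is a zinc finger factor of GC-rich promoters. MYC pairs with MAX at E-boxes and drives ribosome production and growth, and it is a well-known effector of RAS signaling in pancreatic cancer.

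The siRNA was the only agent that set the groups apart. The study lists 2 duplexes against PGR, and the sources used here do not say which was on the array. Their antisense strands are shown 5′ to 3′, with the seed (bases 2 to 8) in capitals.
si-PGR-1: uUGCCUCAaaccaauugcctt
si-PGR-2: uCUUGGGUaauugugcagctt

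Promoters are shown for EGR1, FOSL2 and JUND, the genes with at least 3 probe sets past the signal floor that all differed one way, and for JUN, which holds the site through which AP-1 is known to act on its own gene. Each line gives the 250 bases before the transcription start, 5′ to 3′, from RefSeq on GRCh38.p14. Capitals mark CArG boxes, AP-1 sites (TGACTCA or TGAGTCA) and cAMP response elements, either exact (TGACGTCA) or in the form of the JUN promoter (TGACATCA or TGATGTCA), matched on both strands.
EGR1 (chr5:138465229-138465478, strand +): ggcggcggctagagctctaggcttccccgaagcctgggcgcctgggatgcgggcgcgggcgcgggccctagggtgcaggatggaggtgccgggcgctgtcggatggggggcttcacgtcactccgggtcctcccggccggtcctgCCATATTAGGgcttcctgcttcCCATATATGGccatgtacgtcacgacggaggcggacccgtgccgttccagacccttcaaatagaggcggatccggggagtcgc
JUN (chr1:58784048-58784297, strand -): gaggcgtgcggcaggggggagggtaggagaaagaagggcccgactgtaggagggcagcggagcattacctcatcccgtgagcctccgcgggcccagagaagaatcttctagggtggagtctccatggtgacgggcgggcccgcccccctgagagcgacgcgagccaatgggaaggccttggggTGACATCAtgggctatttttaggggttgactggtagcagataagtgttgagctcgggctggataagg
JUND (chr19:18281623-18281872, strand -): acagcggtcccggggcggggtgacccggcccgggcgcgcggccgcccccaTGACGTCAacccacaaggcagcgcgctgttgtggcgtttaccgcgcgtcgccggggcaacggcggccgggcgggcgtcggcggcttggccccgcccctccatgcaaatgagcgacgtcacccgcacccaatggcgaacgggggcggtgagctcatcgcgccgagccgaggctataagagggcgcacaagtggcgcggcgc
FOSL2 (chr2:28392608-28392857, strand +): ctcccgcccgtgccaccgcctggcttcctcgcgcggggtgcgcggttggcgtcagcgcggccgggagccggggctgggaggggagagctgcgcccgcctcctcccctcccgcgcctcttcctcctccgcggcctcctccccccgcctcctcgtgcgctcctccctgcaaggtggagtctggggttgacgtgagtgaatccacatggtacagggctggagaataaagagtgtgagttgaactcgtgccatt
EGR1 held 2 CArG boxes, which began 105 and 83 bases before the start. A CArG box was present in 1.16% of 35116 promoters of the same length, and 11 promoters held 2 or more. FOS and the other members searched held none in this window. JUN held a single TGACATCA, 67 bases before its start, and ATF3 held one at 123 bases, where 2.37% of promoters held that form on either strand. JUND held TGACGTCA at 200 bases, found in 1.65% of promoters, and FOSL2 held none of these motifs. None of the 8 promoters searched (FOS, FOSB, FOSL2, JUN, JUNB, JUND, ATF3 and EGR1) held an AP-1 site (4.20% of promoters), an E-box of the letters CACGTG (6.34%), an EGR site of the letters GCGTGGGCG or GCGGGGGCG (5.37%) or the progesterone response element GNACANNNTGTNC (0.327%). A match of letters is a description and not a bound site, and no match says only that these letters were not in the window.

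Deposited intensities were compared on the scale log2(intensity + 1), as the array labelled PGR siRNA minus the array labelled control. The signal floor was 97.9, the median intensity of named probe sets over both arrays, and a gene was kept if the higher of its values reached it. The arrays had median intensities of 68.4 and 65.3, and 50.2% and 49.8% of named probe sets lay past the floor. PGR itself was below the floor on both arrays, at 16.1 under the control label and 73.3 under the PGR siRNA label by its brighter probe set, which gives no usable level of it and no check of the labels, on which every direction below rests. Of 6 epithelial markers, all were past the floor on both arrays, from 182 to 55425. All 4 endocrine and all 3 measured acinar markers lay below it. Of the measured markers of fibroblasts (5), leukocytes (4) and endothelial cells (4), those past the floor on both arrays were COL1A1 and CD79A. DCN, CD14 and PECAM1 were past it on the array labelled control alone. PTPRC, the defining leukocyte marker, was below it on both arrays. Of 4 measured surface antigens common in PDAC, MUC1 was past it on both arrays, CEACAM6 on the array labelled control, and CEACAM5 and MSLN on neither. The 3′ to 5′ ratio of ACTB, a measure of RNA integrity, was 1.94 and 1.85, and that of GAPDH 0.994 and 1.01. The 9 bacterial and phage hybridisation controls, which do not come from the cells, read higher on the array labelled PGR siRNA by 0.026 to 0.27 on the log2 scale, with a median of 0.21.

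Read by the brightest probe set, 9 of the 10 genes reached the floor, and all 9 differed by less than 1.5-fold between the arrays. Across all 11614 genes past the floor, 4.72% were at least 1.5-fold lower and 3.65% at least 1.5-fold higher on the array labelled PGR siRNA. Of the 9 genes, 7 were lower by some amount (FOS, FOSL1, FOSL2, JUN, JUNB, ATF3 and EGR1), and JUND and MYC were higher. JUN and ATF3 count as lower by their brightest probe set, though the probe sets of each did not share a sign. Among all genes 46.8% were lower. In RNA of whole cultures, fewer cells that carry an mRNA and less of it per cell cannot be told apart. The median of the 9 was -0.11 on the log2 scale, with a range from -0.40 for FOSL2 to 0.26 for MYC, beside a median of 0.021 for all genes. Of the 24 probe sets, 22 reached the floor, 16 of them lower and 6 higher, where 49.2% of all probe sets past the floor were lower. At least 1.5-fold lower was 1 probe set, of EGR1, and at least 1.5-fold higher were 2, both of JUND. Over all 21528 probe sets past the floor these shares were 6.21% and 4.61%. Each member probe set is also set beside the 1000 named probe sets nearest to it in mean signal, whose SD shows the scatter between these arrays at that brightness and is no error between cultures.

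**Figure D1:**
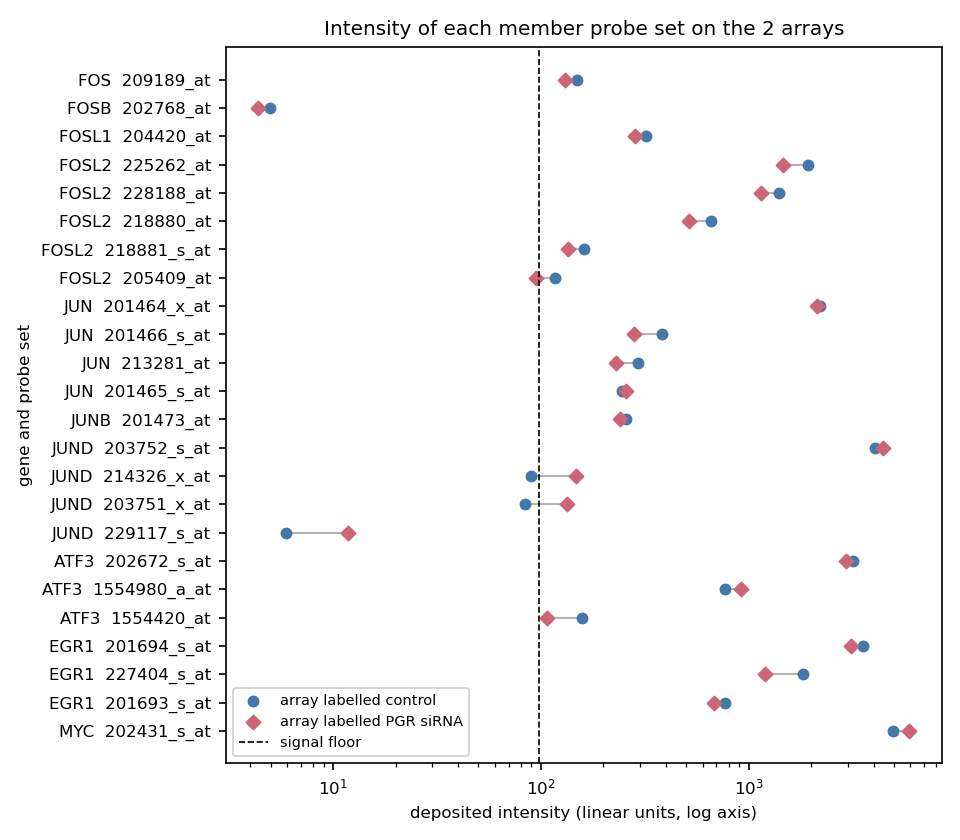
Deposited intensity (log axis) of each member probe set on the array labelled control (circles) and the array labelled PGR siRNA (diamonds), with the signal floor of 97.9 as a dashed line. All 5 FOSL2 pairs and all 3 EGR1 pairs run lower on the array labelled PGR siRNA, and MYC runs higher, from 4960.1 to 5941.

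FOS proteins are the partners that JUN needs for tight binding to the AP-1 site. FOS, the founding member and the fastest to respond to serum, read 149 under the control label and 130.4 under the PGR siRNA label. The values lie close together and not far above the floor, and the difference of -0.19 on the log2 scale was under the SD of 0.47 of probe sets of like signal. FOSB, a close relative with the same kinetics, read 4.99 and 4.36. It was below the floor on both arrays, so these arrays give no usable level of it. FOSL1, which encodes FRA-1, a protein that ERK stabilises, read 321 and 284. Its difference of -0.18 was also smaller than the local SD, 0.35, and both genes rest on 1 probe set each.

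FOSL2, which encodes FRA-2, had the most evenly lower readings of the group. Its brightest probe set (225262_at) read 1924 under the control label and 1456 under the PGR siRNA label, a log2 difference of -0.40. Divided by the SD of 0.21 at its signal this is -1.89, and 4% of the 1000 nearest probe sets were lower still. The next brightest (228188_at) read 1394 and 1152, a difference of -0.28. The third (218880_at) read 662 and 516, a difference of -0.36. All of these lay beyond 1 local SD, though within 1.5-fold. The dimmer pair read 162 and 135 (218881_s_at) and 116 and 94.6 (205409_at), differences of -0.26 and -0.30. At that brightness the scatter was wider, with SDs of 0.46 and 0.57, and the last value fell below the floor. Over the 5 probe sets the mean was -0.32 with an SD of 0.061 between probe sets, where probe sets of 1 gene with both values past the floor differed by an SD of 0.26 over 5203 genes. Of the 260 genes with 5 probe sets past the floor, 10.0% had all of them lower. FOSL2 enters that class through 205409_at, which passed the floor on the array labelled control alone, so its lower sign was fixed by the filter. The mean and SD of FOSL2 include this probe set, while the SD over 5203 genes leaves such probe sets out. Probe sets of a gene read the same RNA on the same array, so their evenness is no replicate of the condition.

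JUN proteins bind DNA with a FOS partner or with each other. JUN, the main activator, was read by 4 probe sets that did not move together. The brightest (201464_x_at) read 2198 and 2123, a log2 difference of -0.050, and 201465_s_at read 244 and 258, a difference of 0.076. Neither leaves the scatter of like probe sets. Lower readings came from 201466_s_at, at 381 and 280.2, and from 213281_at, at 295 and 230.2. Their differences were -0.44 and -0.36, beside local SDs of 0.34 and 0.37. Without probe sets whose identifiers are marked for shared sequence, JUN would be read at -0.36. JUNB, which often opposes JUN, read 257 and 241 with its 1 probe set, a difference of -0.096 and well inside the SD of 0.36.

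JUND, the JUN protein that resting cells keep, was the AP-1 gene with higher readings. Its brightest probe set (203752_s_at) read 4037 under the control label and 4447 under the PGR siRNA label. The difference of 0.14 on the log2 scale was smaller than the local SD of 0.18. All its probe sets carry a mark for sequence shared with other transcripts, and a dimmer pair crossed the floor from below. 214326_x_at read 89.6 and 147, at least 1.51-fold higher with the control value raised to the floor. 203751_x_at read 83.5 and 133, at least 1.36-fold higher on the same basis. Their log2 differences of 0.71 and 0.67 stood beside local SDs of 0.54 and 0.57. The remaining probe set (229117_s_at), at 5.95 and 11.8, was below the floor on both arrays. The probe sets of JUND thus share a sign and not a size. Of the 5 members with at least 3 probe sets past the floor, JUND was the one with all of them higher, and EGR1 and FOSL2 had all of them lower. Among all 2531 such genes 13.5% had all higher and 13.6% all lower. These counts and shares include probe sets past the floor on 1 array alone, whose sign is fixed in advance. With both values past the floor, JUND kept only 203752_s_at.

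ATF3 is a bZIP protein of the stress response that pairs with JUN and often represses. Its brightest probe set (202672_s_at) read 3185 under the control label and 2949.6 under the PGR siRNA label. The log2 difference of -0.11 was smaller than the SD of 0.20 at that signal. The others ran apart, with 1554980_a_at at 769 and 916 (0.25) and 1554420_at at 158 and 107 (-0.57). The signs differ between probe sets of the same gene, so the array gives ATF3 no direction.

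**Figure D2:**
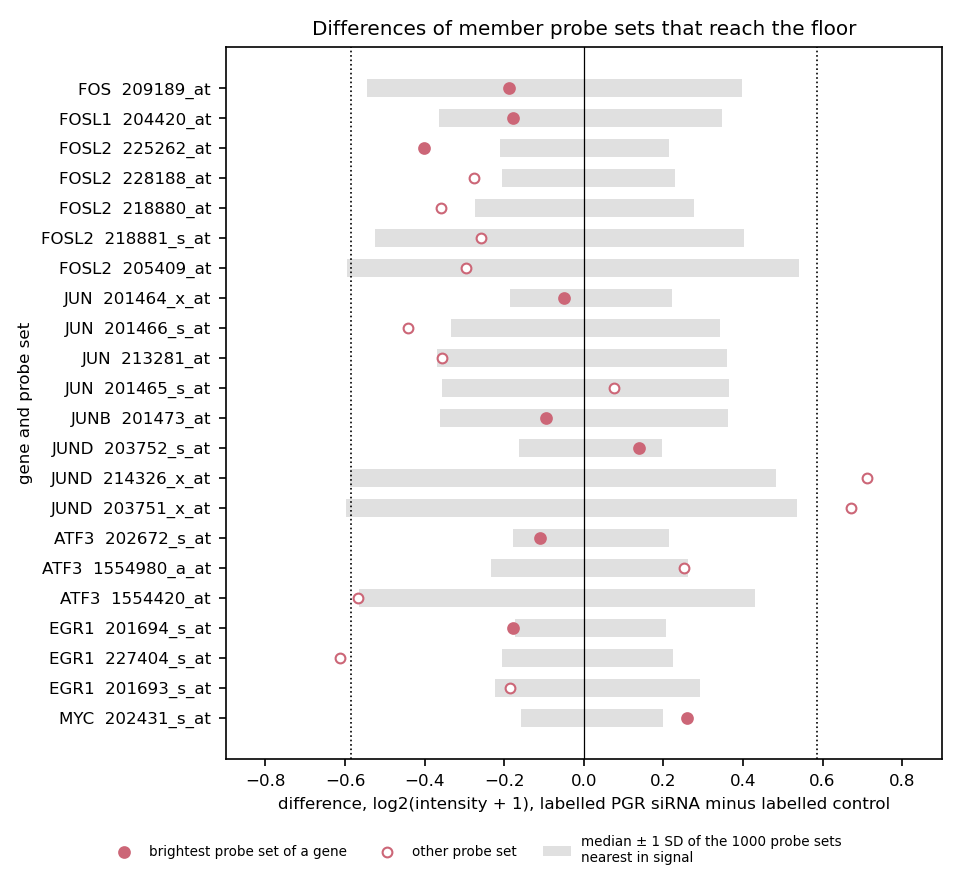
Log2 difference (array labelled PGR siRNA minus array labelled control) of each member probe set past the signal floor, with filled points for the brightest probe set of a gene and open points for the others. Grey bars are the median ± 1 SD of the 1000 probe sets nearest in signal, and dotted lines mark 1.5-fold. The point farthest outside its bar is EGR1 227404_s_at at -0.61.

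EGR1 was lower with each of its 3 probe sets, all of which carry a mark for sequence shared between transcripts. The brightest (201694_s_at) read 3533 under the control label and 3126 under the PGR siRNA label, a log2 difference of -0.18. The dimmest (201693_s_at) read 773 and 679, a difference of -0.19. These differences were a little smaller than the local SDs of 0.19 and 0.26, and the brightest lay just outside the band of median ± 1 SD. The third (227404_s_at) read 1830.3 and 1197, a difference of -0.61 or 1.53-fold lower. Divided by the local SD of 0.21 this is -2.86, and 0.8% of the 1000 nearest probe sets were lower. So the probe sets of EGR1 gave a sign in common and sizes that differed by an SD of 0.25, about that between probe sets of other genes. The 1.5-fold reading is that of 1 probe set, and median centring of the arrays took it under 1.5-fold.

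MYC was read by 1 probe set (202431_s_at), which carries the same mark. It read 4960.1 under the control label and 5941 under the PGR siRNA label, a log2 difference of 0.26. This was 1.46 times the local SD of 0.18, and 6.8% of the 1000 nearest probe sets were higher. Probe sets of like signal had a median of 0.020. The difference of MYC lies inside the range of the hybridisation controls, which reached 0.27, and their part in it was not tested. With loess MYC was at 0.23, so it stayed higher, and no other probe set was there to check it.

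**Figure D3:**
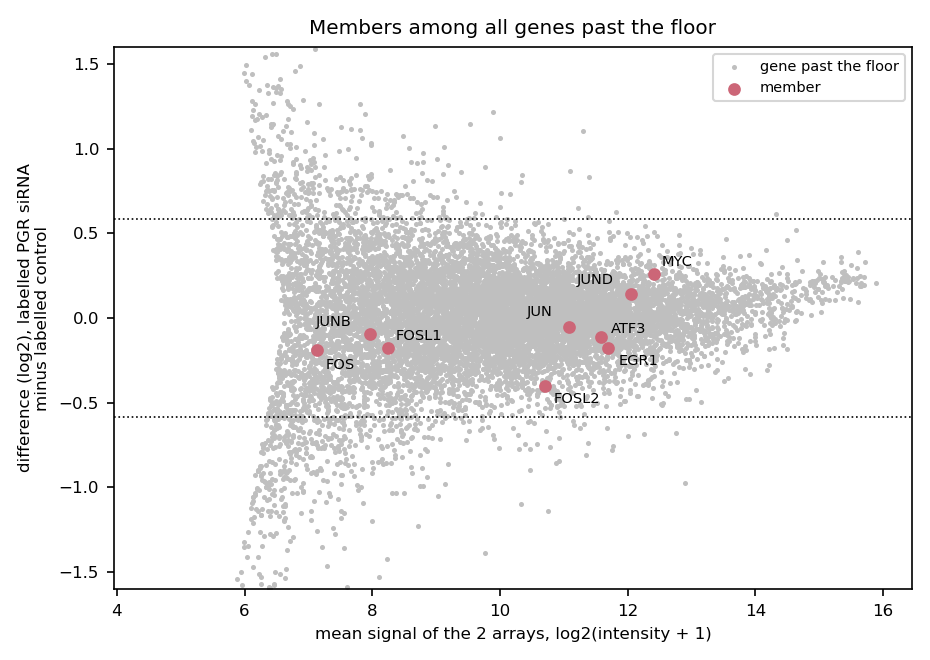
Log2 difference (array labelled PGR siRNA minus array labelled control) against mean log2 signal for all 11614 genes past the floor (grey) and the 9 members (red), with 1.5-fold as dotted lines. All 9 members lie between the lines, FOSL2 lowest at -0.40 and MYC highest at 0.26, and 123 other genes fall outside the plotted range of 1.6 either way.

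Upstream of these genes are the kinases and the factors that hold their promoters. Of 25 listed MAPK and RSK kinases 19 were measured, all past the floor, with 9 lower, 10 higher and a median of 0.0091. MAPK3, the ERK1 kinase, was at least 1.5-fold lower, at 467 and 299 (-0.64), with no other probe set past the floor. With median centring, or without probe sets marked for shared sequence, no kinase was that much lower. RPS6KA4, a nuclear kinase that MAPKs activate, was at least 1.5-fold higher, at 242 and 392 (0.70). MAP3K5, a stress kinase, was at -0.47 and MAP2K2, the MEK2 kinase, at 0.29, each with another probe set of the opposite sign (0.46 and -0.34). Of the 9 genes of serum response factor and its cofactors, all measured, 7 were lower and the median was -0.16. MRTFA, an actin-regulated cofactor, read 287 and 188 (-0.61) with another probe set at -1.50, and its brightest was under 1.5-fold with median centring, loess or an offset of 16. ELK3, a ternary complex factor, was at -0.46. SRF itself was at 0.33 with another probe set at -1.17, and MRTFB at 0.091 with another at 0.58, so the list has no common direction across probe sets. Beside these counts stands the 46.8% of all genes that were lower. At least 1.5-fold lower were 4.72% of all genes, and 3.65% were at least 1.5-fold higher.

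The EGR family and its NAB corepressors had 4 genes past the floor, with a median of -0.38. All 4 were lower, where 46.8% of all genes were. NAB2, which EGR1 induces and which then represses it, read 522 and 359 (-0.54), with another probe set at -0.64. NAB1 read 1896 and 1445 (-0.39), with others at -0.72 and -0.20. EGR3 read 175 and 135 (-0.38). EGR4 read 138 and 128 (-0.11). None passed 1.5-fold with the brightest probe set. When each gene was read by the mean over its probe sets, dim ones too, the median was -0.14, EGR4 was 0.82 and NAB1 0.10. Of 16 measured EGR1 target genes, 15 were past the floor, 7 lower and 8 higher, with a median of 0.017 that ranged from -0.050 to 0.083 over other settings. THBS1, a matrix protein, read 1753 and 1151 (-0.61), with others between -0.30 and 0.032. It was the 1 target at least 1.5-fold lower, where 4.72% of all genes were. No target was 1.5-fold lower with median centring or without probe sets marked for shared sequence. PTPN1, a phosphatase, was at 0.33 and CDKN1A, a cell cycle inhibitor, at 0.25.

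Among 33 other immediate early genes past the floor, 21 were lower and 12 higher, with a median of -0.12, where 46.8% of all genes were lower. At least 1.5-fold lower were CCN2, a matricellular protein, at 210.1 and 130.1 (-0.69), MAP3K8, a kinase upstream of ERK, at 365 and 229 (-0.67), and GADD45B, a stress protein, at 438 and 276 (-0.67) with others at -0.95 and 0.040. At least 1.5-fold higher was PLK3, a polo-like kinase, at 108 and 175 (0.69). Over all genes these calls made up 4.72% and 3.65%. CCN1, a relative of CCN2, was at 0.35 with another probe set at -0.72. Without probe sets marked for shared sequence the median of 20 such genes was -0.00096, so it rests on the choice of probe sets. The bZIP partners of AP-1 had 10 lower and 7 higher, with a median of -0.036. ATF2, a JUN partner, read 2815 and 1963 (-0.52) with another probe set at 0.27, and NFE2L1 was highest at 0.36, followed by ATF7 at 0.17. The 1 partner past 1.5-fold, BATF3, read 101 and 11.3, a drop of at least 1.04-fold once its dimmer reading is set to the floor.

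Target genes of AP-1 had 16 of 25 measured genes past the floor, 12 lower and 4 higher beside 46.8% of all genes lower, with a median of -0.17 and none past 1.5-fold. CD44, a hyaluronan receptor, read 1358 and 970.4 (-0.48), with 7 others between -0.34 and 0.071. CXCL8, a chemokine, read 519 and 392 (-0.40), with another at -0.19. S100A2, a calcium-binding protein, was highest at 0.24, and ANXA1, an annexin, stood at 0.087 with another probe set at -0.76. The metalloproteinases MMP1, MMP3, MMP10 and MMP13, textbook AP-1 targets, were below the floor on both arrays, as were IL6, IVL, SPP1, SPRR1B and AXL, while MMP9 read 143 and 144. Read by the mean over each gene's probe sets, the list stood at -0.045.

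Target genes of MYC had 36 of 37 measured genes past the floor, 28 higher and 8 lower beside 46.8% of all genes lower, with a median of 0.097 and none past 1.5-fold. NOLC1, a nucleolar protein of ribosome assembly, read 4120 and 6004 (0.54), with others at 0.47 and 0.52. RRP12, of ribosome assembly too, was at 0.37 with another at 0.56. UBTF, a factor of RNA polymerase I, was at -0.41, with others between -0.44 and -0.12, and POLR1A, its largest subunit, at -0.26 with others from -0.51 to 1.13. Relative to genes of like signal, by a running median, the list stood at 0.036. Of 19 genes of the MAX network and MYC turnover past the floor, 11 were higher and 8 lower, with a median of 0.060. MLXIPL, a glucose-responsive factor, read 208 and 134 (-0.63), the 1 gene past 1.5-fold, and no gene was that much lower with median centring or an offset of 16. Among all genes past the floor 4.72% were at least 1.5-fold lower and 3.65% at least 1.5-fold higher. ZBTB17, a partner through which MYC represses, was at -0.50, MYCL, a MYC relative, at 0.58, just short of 1.5-fold, and HUWE1, a ubiquitin ligase, at 0.39 with others between -0.67 and 0.018. With loess, a running median, quantile normalization, median centring or unmarked probe sets alone, 1 gene of the list was at least 1.5-fold higher. Genes for the turnover of mRNAs with AU-rich elements, such as those of FOS, JUN and MYC, had 13 of 21 lower beside 46.8% of all genes. Their median was -0.0084, and none passed 1.5-fold. ZFP36L1, which binds such elements, was at -0.37 with another probe set at 0.15, and KHSRP, a decay factor, at -0.24 with others from -0.55 to 0.47. CNOT3, of the deadenylase complex, was at 0.27, with another at 0.22, and TIA1, an RNA-binding protein, at 0.23, with others from -0.29 to 0.092.

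**Figure D4:**
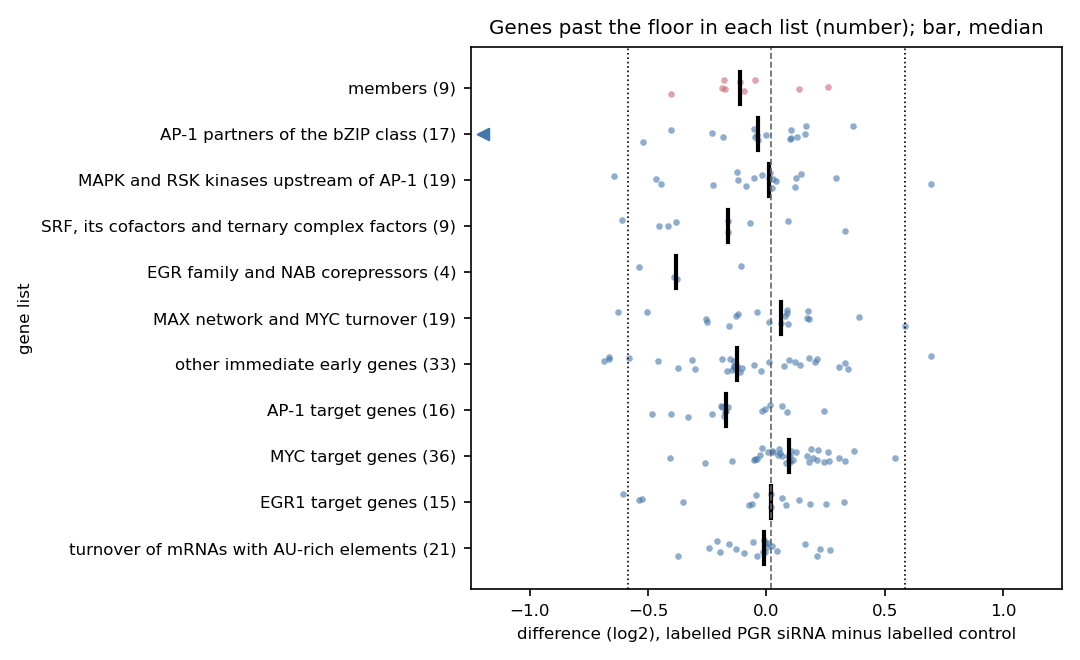
Log2 difference (array labelled PGR siRNA minus array labelled control) of each gene past the floor in each list, with its number in brackets, the list median as a black bar, the median of all genes (0.021) as a dashed line and 1.5-fold as dotted lines. The EGR and NAB list has the lowest median, -0.38 over 4 genes, MYC targets the highest, 0.097 over 36, and a triangle marks BATF3, which lies beyond the plotted range.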

How the data were processed

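RNA of AsPC-1 cells was read on Affymetrix 3′ arrays with biotin label, with a single array for each condition. Linear intensity values, 1 per probe set and array, were deposited. The steps of summary, background correction and scaling were not given in the sources used here. Both arrays had a mean of 500.1 with the outer 2% of values trimmed from either tail, so they carry a common scaling, which leaves a trend with signal in place.

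Of 54675 probe sets, 41097 had 1 gene symbol in the platform annotation, 1801 had several and 11777 none. Symbols were updated through gene identifiers to RefSeq (GRCh38.p14) for 41043 and kept for 54. Differences were taken on log2(intensity + 1), and each gene was read by its brightest probe set. Listed genes without a probe set of 1 symbol were not analysed here. The members and the 10 lists of related genes were chosen with earlier results of these data known, and shares of genes with all probe sets lower or higher were added after the values were seen, as were the genes whose promoters are printed. Named are the members, PGR, and in each list the 2 genes at either end and those past 1.5-fold. MMP9 and the AP-1 targets below the floor are named outside that rule, after their values were seen.

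With 1 array per condition no test was made, and precision is limited by the number of arrays. Of the calculation, the log2 difference, the 1.5-fold rule and the running median were run on simulated data, and other steps were not. Alternatives were loess (span 0.7), a running median over 201 genes, quantile normalization, median centring, other readings of a gene, an offset of 16, other signal filters and a 2-fold rule. Promoter sequences were those of RefSeq for 8 members. The work used matplotlib 3.10.9, statsmodels 0.14.6, scipy 1.17.1, pandas 2.3.3 and numpy 2.4.6 under Python 3.11.15. Columns of the value table that were left out numbered 0.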

Additional observations from a re-analysis of the deposited data

How the results depend on the processing

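The median of the members stayed below 0 in all 12 settings, from -0.18 to -0.045 on the log2 scale. FOS, FOSL1, FOSL2, JUNB and EGR1 stayed lower and JUND and MYC higher in each setting that gave them a value. FOS, FOSL1, JUNB and MYC have 1 probe set each, with both values past the floor. Settings that change only the probe sets read or the signal filter could therefore not change their values. JUN turned to 0.016 with median centring, and ATF3 to 0.25 without probe sets marked for shared sequence. With the mean over its probe sets JUND was 0.60 and so 1 member was at least 1.5-fold higher. Of member probe sets, none (0) was at least 1.5-fold lower with median centring or at 2-fold, and none (0) higher at 2-fold, with both values past the floor or with the floor at the 75th percentile. The median of the bZIP partners was 0.050 with the floor at the 75th percentile and 0.030 with median centring, where 5 were lower. That of serum response factor and its cofactors was -0.27 with that floor or with the mean of all probe sets, and -0.29 without probe sets marked for shared sequence. Reading genes by that mean, the medians were -0.14 for the EGR family and NAB, -0.044 for the MAX network, -0.019 for other immediate early genes and -0.045 for AP-1 targets. Other immediate early genes stood at -0.059 with median centring and at -0.00096 without probe sets marked for shared sequence. MYC targets stood at 0.16 with median centring and 0.036 with the running median. The mRNA turnover genes stood at 0.057, with 7 lower, under median centring, a setting that moves all genes to 0.087. The EGR1 target median changed sign in 6 of 12 settings, and 8 turnover genes were lower with the mean of all probe sets or without marked ones. The cause of these moves was not tested. Differences near the floor are the least certain, since scatter widens there. No paired analysis was possible because each condition has a single array.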
